A study of Drosophila melanogaster with 32 samples.

Results

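In Drosophila S2 cells that expressed the ADAR catalytic domain with the E488Q change and no RNA-binding protein, 251 edited sites were listed that none of 5 libraries of fused deaminase listed. They were chosen by listing, and so by the reads and editing that put a position on each list. A chromosome and base had to be listed in at least 1 deaminase-alone library. It had to be absent from the 5 analysed Hrp48 TRIBE, Hrp48 HyperTRIBE and FMRP HyperTRIBE libraries. They made up 251 of the 464 deaminase-alone sites (54.1%, Wilson 95% interval 49.5 to 58.6%) and 251 of the 33835 positions listed in any library. They lay in 177 genes, and all 251 came from deaminase-alone replicate 2.

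ADAR enzymes deaminate adenosine to inosine in RNA that is folded on itself or paired, and inosine is read as guanosine after sequencing. In TRIBE the catalytic domain is joined to an RNA-binding protein of interest in place of the enzyme's own double-stranded RNA-binding domains. Edits then mark that protein's transcripts. HyperTRIBE uses the E488Q change, which makes the domain more active, and the domain by itself serves as the control for edits that need no RNA-binding partner.

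Of the 32 samples of the series, 7 S2 libraries were analysed. They expressed the E488Q catalytic domain alone (2 libraries), Hrp48 joined to the unchanged domain (Hrp48 TRIBE, 2 libraries), Hrp48 joined to the E488Q domain (Hrp48 HyperTRIBE, 2 libraries) or FMRP joined to the E488Q domain (FMRP HyperTRIBE, 1 library). Hrp48 is an hnRNP protein and FMRP a regulator of translation. All cells were transfected transiently, induced with CuSO4 and sorted by fluorescence, and poly(A) RNA was sequenced. The other samples were not analysed here. Among them were FMRP HyperTRIBE replicate 2 and FMRP TRIBE in S2 cells, neurons, linker variants and S2 cells without a construct. Whether those unused libraries list any of the sites described here was not tested. Whether the replicates came from separate cultures is not in the labels.

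The deaminase-alone libraries stood far apart. Replicate 1 listed 13 sites, and a fusion library listed every one of them. Replicate 2 listed 459 sites, of which 251 were listed by no fusion library (54.7%, 50.1 to 59.2%). The replicates shared 8 sites, all 8 also listed by a fusion library, with a median of 31 reads in replicate 1 and 48.5 in replicate 2. Their median editing was 19.3% in replicate 1 and 31.2% in replicate 2. Reads and editing were each higher in replicate 2 at 5 of the 8. The file headers place deaminase-alone replicates 1 and 2 in library sets 4 and 6, the Hrp48 libraries in sets 2 and 3, and FMRP HyperTRIBE in set 5, so the deaminase alone shares no set with any fusion, and its difference from them cannot be told apart from library set. Without replicate 2 no site was left, and every value below describes that 1 library. Fusion libraries listed between 1252 and 22803 sites. Every listed site had at least 20 reads and at least 10% of them edited, so an unlisted position is not shown to be unedited: its coverage or its editing may have been under these values. Markers of the labelled cell type could not be read as expression from lists of edited sites. Of the hemocyte and matrix genes, which S2 cells are known for, 11 were listed in some library, and 1 neuronal gene was. The marker lists searched differed in length, so these counts do not compare cell types.

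The share of sites that no other construct listed was 54.1% for the deaminase alone, against 85.3% for Hrp48 HyperTRIBE, 21.7% for Hrp48 TRIBE and 29.8% for FMRP HyperTRIBE. The number of sites differed between the constructs, and this share moves with it. The listing itself chose the 251 sites, so these shares are a description and were not tested.

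Most of the 251 sites lay near the listing minimum of editing and of coverage. Editing ran from 10% to 74.2% of reads with a median of 13.3% and quartiles of 10.7% and 16.7%. The 208 other sites of replicate 2, which a fusion library also listed, ran from 10% to 100% with a median of 15.2% and quartiles of 12% and 23.9%. At 20% editing or more there were 34 of the 251 sites (13.5%, 9.86 to 18.3%) and 68 of the 208 (32.7%, 26.7 to 39.3%). Sites of a single library are not replicates, so these intervals do not test a difference. At 30% or more there were 9 and 31. Reads per site had a median of 26 (20 to 116) at the 251 sites and 29 (20 to 127) at the 208.

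Edited reads per site were few, with a median of 4 at the 251 sites and 5 at the 208. Of the 251 sites, 119 rested on 2 or 3 edited reads (47.4%, 41.3 to 53.6%), against 60 of the 208 shared sites (28.8%, 23.1 to 35.3%). At least 10 edited reads were seen at 20 of the 251 sites and 49 of the 208. Within classes of coverage the medians of editing were 13.04%, 13.5% and 14.9% for the 251 sites with 20 to 29, 30 to 49 and 50 or more reads, against 14.3%, 15.6% and 16.2% for the shared sites. The part of replicate 2's sites that no fusion library listed was 59.9%, 49.6% and 41.3% in these 3 classes. By editing it was 61.7% of the sites under 15%, 58.3% of those between 15 and 20%, 40.3% of those between 20 and 30%, and 22.5% of those at 30% or more (12.3 to 37.5%, 9 of 40). The share was highest in the lowest class of reads and of editing. Reads and editing are also what put a site on a list, so this is a description and was not tested.

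**Figure D1:**
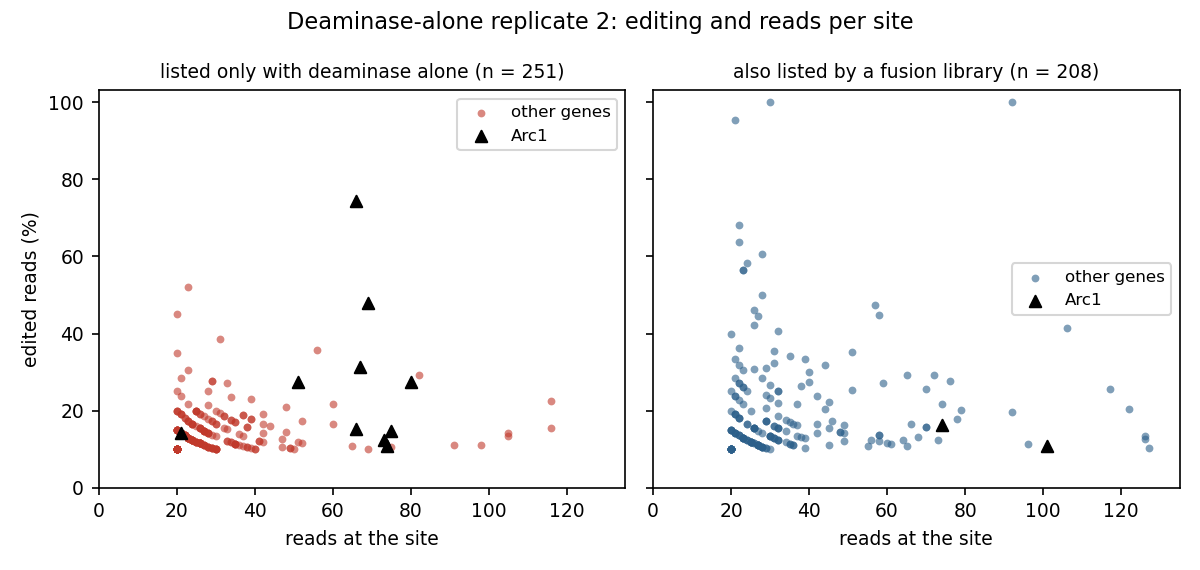
Edited reads (%) against reads at the site in deaminase-alone replicate 2, for the 251 sites that no fusion library listed (left) and the 208 that one did (right). Triangles mark Arc1. Most points of the left panel lie near 20 reads and 10% editing, and the highest point there is the Arc1 site at 74.2%.

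Just inside the listing minimum, 48 of the 251 sites had exactly 10% of reads edited, on 20 to 50 reads, against 15 of the 208. Just outside the rule, 47 sites of replicate 2 were listed by a single fusion library. These 47 had a median of 13.6% in deaminase-alone replicate 2, with the highest at 58.3%. In that fusion library their median was 12.5%, 21 of them were under 12%, and the highest was at 55.9%. Another 48, 61, 38 and 14 sites were listed by 2, 3, 4 and 5 fusion libraries. Of the low sites with most reads, one lay in l(1)G0320 (10 of 91 reads, 10.99%), one in the overlapping genes CG34164 and RpL7-like (8 of 75 reads, 10.7%), and one in mgl (7 of 65 reads, 10.8%). The other 2 are described with Arc1 and the rRNA pseudogene CR41602.

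Arc1 held the largest group. Its product descends from the Gag protein of a retrotransposon and forms capsids that carry its own mRNA between cells. All 10 sites lay in an exon on the minus strand of 2R, between positions 10246123 and 10246457 of build dm3, a span of 335 bases. The highest, at 10246252, had 49 of 66 reads edited (74.2%, 62.6 to 83.3%), and the base beside it, at 10246253, had 21 of 67 (31.3%, 21.5 to 43.2%). Next came 10246206 with 33 of 69 reads (47.8%, 36.5 to 59.4%). These 3 sites lie within the same 50 bases. The sites at 10246123 and 10246442 had 22 of 80 reads (27.5%) and 14 of 51 reads (27.5%). The other 5 had between 10.8% and 15.2%, among them 10246198 with 8 of 74 reads (10.8%). Arc1 supplied 5 of the 9 sites in all genes that had both 20% editing and 50 reads.

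By the rule, no fusion library listed the 10 positions in Arc1. Fusion libraries listed 5 positions in the gene, and 0 of them lay between the 10 deaminase-alone sites. The nearest, at 10246089, had 12 of 74 reads edited with the deaminase alone (16.2%) and 10 of 92 in Hrp48 HyperTRIBE replicate 2 (10.9%). At 10246839 the deaminase alone had 11 of 101 reads (10.9%), against 15 of 119 (12.6%) and 12 of 115 (10.4%) in Hrp48 HyperTRIBE and 32 of 119 (26.9%) in FMRP HyperTRIBE. At 10246981, not listed with the deaminase alone, the Hrp48 HyperTRIBE libraries had 21.5% and 29.1% and FMRP HyperTRIBE had 46.4%, on 121, 117 and 110 reads. Neither Hrp48 TRIBE library listed a site in Arc1. At its 5 positions in Arc1 a fusion library that listed one had at least 92 reads, and reads at the 10 positions themselves are not in these lists.

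**Figure D2:**
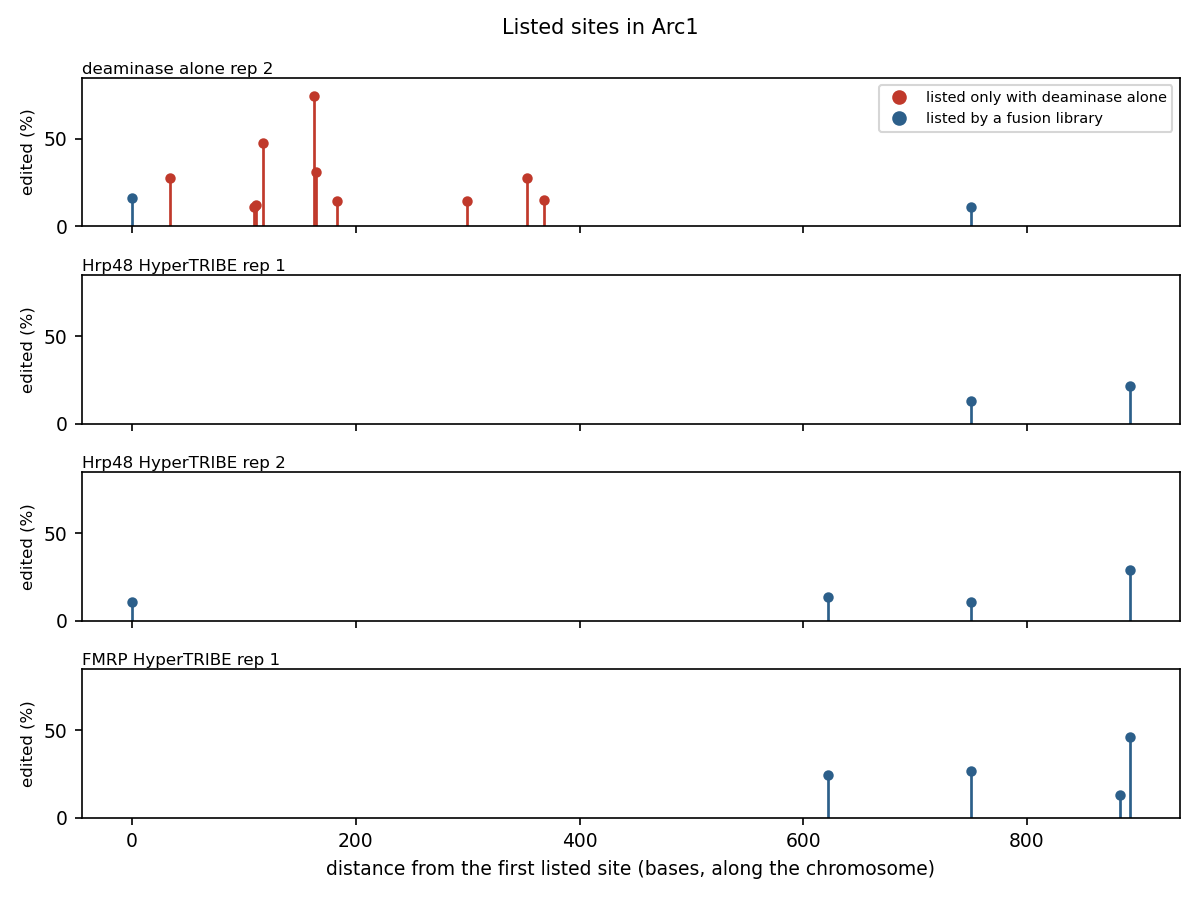
Edited reads (%) at each listed site of Arc1 against its distance in bases from the first listed site, by library. The 10 sites listed only with the deaminase alone reach 74.2% and lie on the left, while the fusion libraries have 4 of their 5 positions to the right of them.

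A second set lay in noncoding RNAs. Sites in noncoding genes were 5.45% of all sites of deaminase-alone replicate 2 (25 of 459), against 1.12% and 1% for Hrp48 TRIBE, 0.878% and 0.917% for Hrp48 HyperTRIBE and 0.724% for FMRP HyperTRIBE. Of the 251 sites, 13 lay in 5 such genes (5.18%, 3.05 to 8.66%), and of the 208 shared sites 12 did (5.77%, 3.33 to 9.81%). These counts include any site that also lies in a protein-coding gene. In counts, the fusion libraries listed 14 and 14, 173 and 209, and 34 sites in noncoding genes, within longer lists. The shared sites thus had a share as high as the 251. They include positions in CR41602, CR40677 and CR45184 that were read as edited at 95.2 to 100%, unlike any of the 251.

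Most of the 13 sites were in hairpin RNA genes. These are long inverted repeats whose transcripts fold into double-stranded RNA and are cut by Dicer-2 into small interfering RNAs. This class was singled out after its values were seen. The files list 2 such genes, pncr009:3L (current symbol hpRNA:CR33940) and CR32207 (hpRNA:CR32207), both on the minus strand of 3L. They held 15 of the 459 sites of replicate 2 (3.27%), against 0.16% and 0.357% of sites for Hrp48 TRIBE, 0.0609% and 0.0482% for Hrp48 HyperTRIBE and 0.107% for FMRP HyperTRIBE. In counts, these are 15 sites with the deaminase alone, against 2 and 5, 12 and 11, and 5. The fusion libraries thus listed hairpin sites too, within lists that were longer, of 1252 to 22803 sites. Of the 15, 9 were among the 251 sites (3.59%, 1.90 to 6.67%) and 6 among the 208 shared sites (2.88%, 1.33 to 6.15%). Hairpin genes therefore do not set the 251 sites apart from the shared ones. Hairpin genes of this family resemble each other, and reads cannot be assigned to one copy with certainty.

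In pncr009:3L, 6 sites were listed only with the deaminase alone and 6 more by a fusion as well. The 6 were edited at 11.4 to 21.7% on 23 to 41 reads, and 5 of them lay between 19481189 and 19481340. The pair at 19481249 and 19481252 had 6 of 38 reads (15.8%) and 5 of 41 reads (12.2%). The shared site at 19481385 had 11 of 31 reads with the deaminase alone (35.5%), against 4 of 22 (18.2%) and 6 of 37 (16.2%) in Hrp48 TRIBE, 16 of 39 (41.0%) and 27 of 67 (40.3%) in Hrp48 HyperTRIBE and 17 of 78 (21.8%) in FMRP HyperTRIBE. The shared site at 19481212 had 12 of 40 reads (30%) with the deaminase alone, against 6 of 60 (10%) in Hrp48 HyperTRIBE replicate 1, and no other fusion library listed it. The sites that were not shared were lower than the highest shared ones, and fusion sites lay 12 to 45 bases from each of the 6.

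CR32207 had 3 sites, with 6 of 21 reads at 19471540 (28.6%, 13.8 to 49.96%), 8 of 42 at 19471497 (19.05%) and 3 of 30 at 19470836 (10%). The nearest of the 4 fusion positions lay 27, 634 and 677 bases from the sites at 19470836, 19471497 and 19471540. The highest of the 4 was 19470800 with 16 of 30 reads in Hrp48 HyperTRIBE replicate 2 (53.3%), against 5 of 40 in FMRP HyperTRIBE (12.5%). The other noncoding genes held 4 sites, each at 10 to 10.2% editing. They were 2 in the long noncoding RNA CR42862, 1 in Hsromega, the heat-shock RNA that gathers hnRNP proteins, and 1 in CR41602, a pseudogene of 18S rRNA on the scaffold XHet (7 of 69 reads, 10.1%). The CR42862 site at 224522 also lies in the protein-coding gene CG33229 and cannot be assigned to either. In CR41602 another position was read as edited in 92 of 92 reads of deaminase-alone replicate 2 and at 99.1 to 100% in every other library. Reads of near-identical rRNA copies cannot be separated here.

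**Figure D3:**
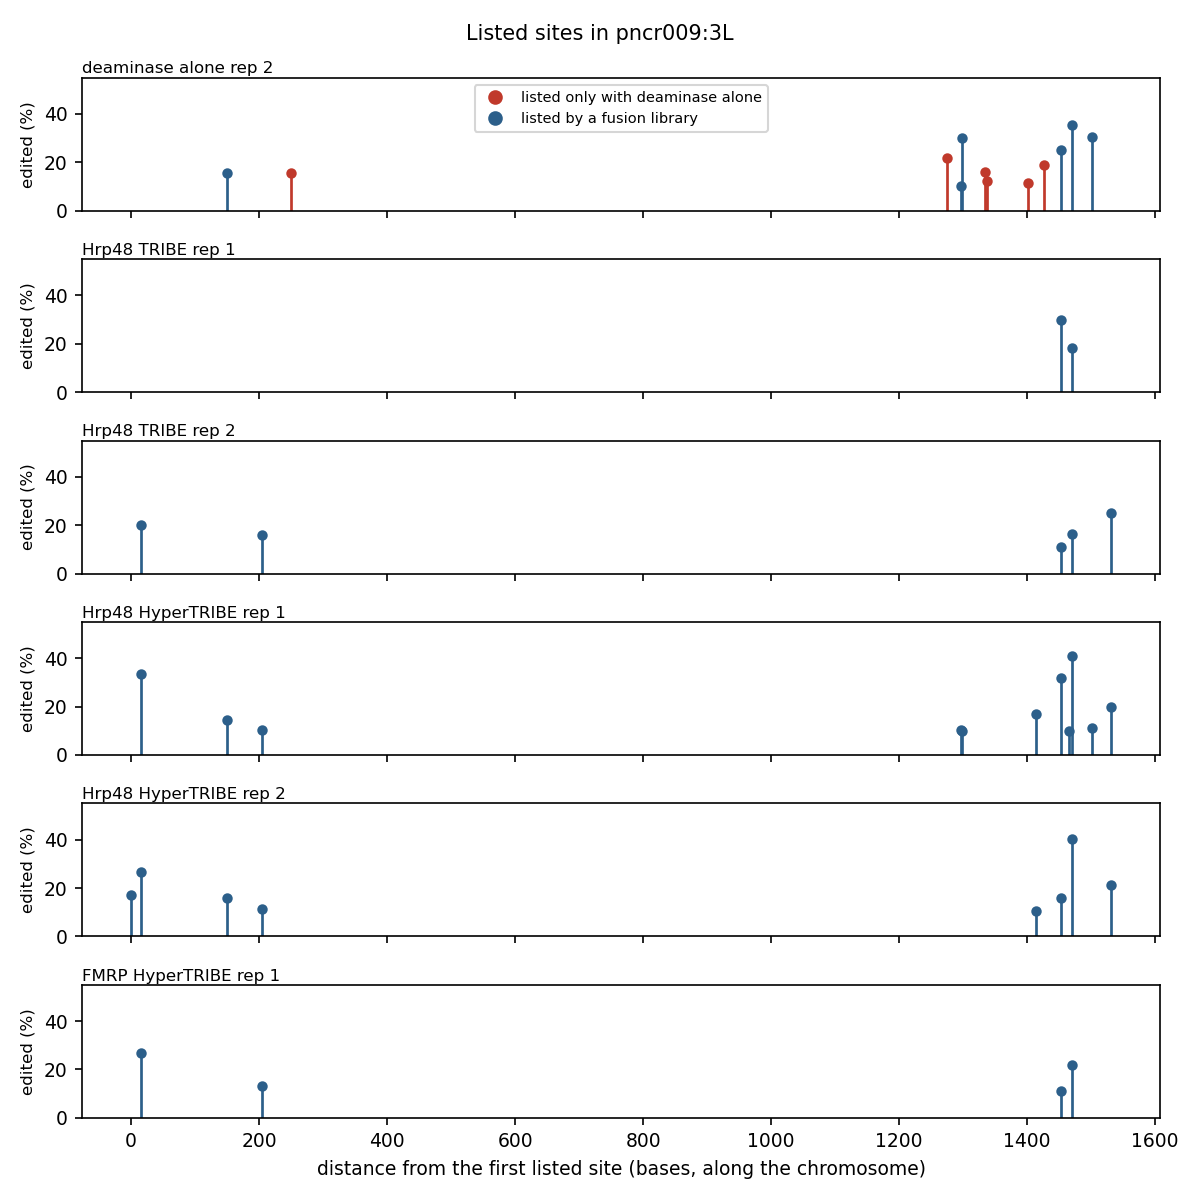
Edited reads (%) at each listed site of the hairpin RNA gene pncr009:3L against its distance in bases from the first listed site, by library. The 6 sites listed only with the deaminase alone, at 11.4 to 21.7%, lie among sites that fusion libraries list, near both ends of the gene's listed sites.

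Elsewhere the sites were scattered, 1 or a few to a gene. Of the 177 genes, 133 held 1 of the sites, 29 held 2, and 15 held 3 or more, 66 sites in all. Another of the 251 sites lay within 100 bases in the same gene for 50 of them (19.9%, 15.4 to 25.3%), and for 40 of 241 without Arc1 (16.6%). Among the 208 shared sites, 44 had another shared site as near (21.2%, 16.2 to 27.2%). With any site of replicate 2 as neighbour the counts were 72 of 251 (28.7%) and 65 of 208 (31.3%), which makes 29.8% for the library as a whole. The same measure was 32.5% and 26.4% in Hrp48 TRIBE, 56.2% and 55.2% in Hrp48 HyperTRIBE, and 23.9% in FMRP HyperTRIBE. Within 500 bases it was 105 of the 251 sites (41.8%) and 88 of the 208 (42.3%), or 42% for the library, against 50.2% and 42% in Hrp48 TRIBE, 83% and 82.2% in Hrp48 HyperTRIBE and 53.2% in FMRP HyperTRIBE. Neighbours were thus about as frequent around the 251 sites as around the shared ones, and most frequent in the 2 Hrp48 HyperTRIBE libraries. Those 2 libraries also listed the most sites, 19706 and 22803, against 459 in deaminase-alone replicate 2. A longer list leaves more possible neighbours, and how far that sets these shares was not tested. Within 3 bases of another of the 251 sites were 14, in pairs or runs such as those of Arc1, sty and CG32369.

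Genes with 3 or more sites encode proteins of different kinds. The endocytic receptor gene mgl held 6 sites over 11295 bases of the X chromosome, at 10 to 16.7% editing, and the nearest fusion site was 229 to 1678 bases from each. The spectrin gene kst held 5 over 4406 bases at 11.5 to 20%. The Rac activator gene mbc held 5, at 10 to 18.8%. In mbc, 3 of the 5 lay 4376 to 4688 bases from the nearer of the gene's 2 fusion positions, while the other 2 each lay 3 bases from one of them, at 19623941 (6 of 32 reads, 18.8%) and 19624964 (4 of 29 reads, 13.8%). At the fusion position 19623944 the deaminase alone had 5 of 32 reads (15.6%), against 7 of 52 (13.5%) in Hrp48 HyperTRIBE replicate 2 and 6 of 30 (20%) in FMRP HyperTRIBE.

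The other genes of this kind ranged from sites among dense fusion sites to sites far from any. CycG, encoding cyclin G, had 4 sites within 145 bases at 10 to 25%, each 1 to 22 bases from a fusion site, and fusion libraries listed 43 positions in the gene. Of these 4, the one at 27423301 had 7 of 28 reads edited (25%), and 3 bases away, at 27423298, the deaminase alone had 9 of 29 reads (31.0%), against 5 of 28 (17.9%) in Hrp48 TRIBE replicate 2 and 22 of 44 (50%) and 15 of 36 (41.7%) in Hrp48 HyperTRIBE. Lk6, a kinase of the cap-binding factor eIF4E, had 4 at 10 to 16.7%, each 13 to 50 bases from its nearest fusion site. For cv-2, a secreted BMP-binding protein, 4 sites at 10.7 to 17.6% lay 4 to 992 bases from theirs. The centrosome gene cnn had 4 at 10.3 to 21.4%, at 72 to 212 bases. With 3 each followed sty, an inhibitor of receptor tyrosine kinase signalling (11.8 to 17.6%), the teneurin gene Ten-m (15 to 27.6%), the ABC transporter gene Mrp4 (11.5 to 17.3%), CG15099 (17.9 to 20%) and CG32369 (10 to 20%). Their nearest fusion sites were 20 to 34 bases away in sty, 23 to 507 in Ten-m, 77 to 1159 in Mrp4, 43 to 248 in CG15099 and 236 to 375 in CG32369.

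**Figure D4:**
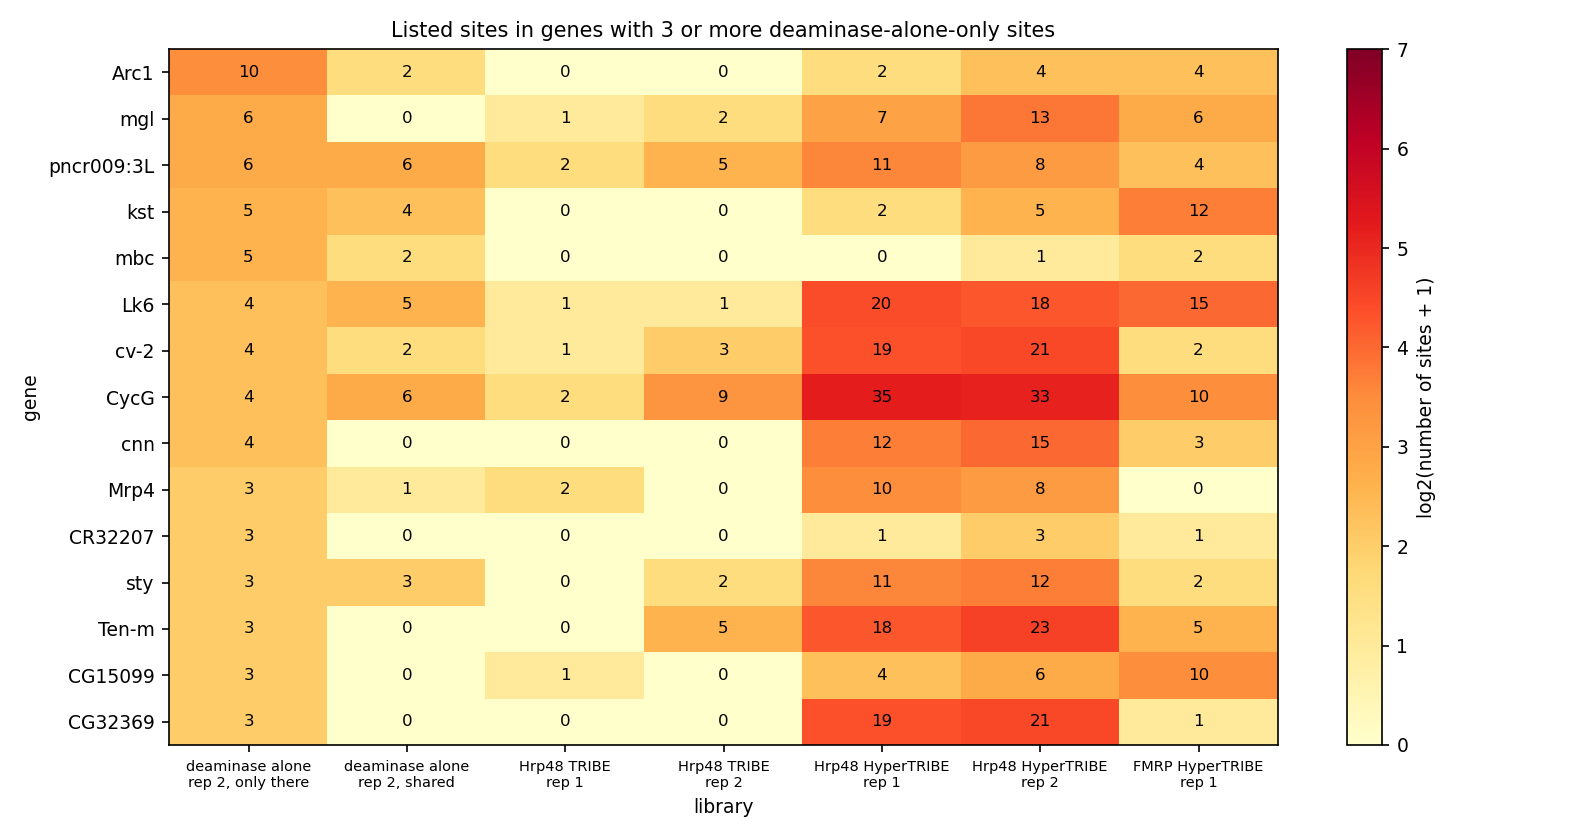
Number of listed sites in the 15 genes with 3 or more sites listed only with the deaminase alone. Columns are those sites, the other sites of deaminase-alone replicate 2 and the sites of each fusion library, and colour gives log2(number + 1). Arc1 has 10 in the first column and at most 4 in any fusion library, while CycG has 4 against 35 and 33 with Hrp48 HyperTRIBE.

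Single sites with high editing lay in genes of many kinds. CG5045 had 12 of 31 reads edited (38.7%, 23.7 to 56.2%) at 10357299 of 2L, and the next base, at 10357298, had 8 of 32 reads with the deaminase alone (25%), against 8 of 53 (15.1%) and 8 of 62 (12.9%) in Hrp48 HyperTRIBE. Sec23, a COPII coat subunit of the secretory pathway, had 20 of 56 (35.7%, 24.5 to 48.8%), and a second site with 7 of 39 (17.9%) lay 120 bases away. The signalling adaptor 14-3-3zeta had 24 of 82 (29.3%, 20.5 to 39.9%), and the glycosyltransferase gene Ugt86Da had 9 of 33 (27.3%). alpha-Cat, which ties cadherins to actin, had 8 of 34 (23.5%). On fewer than 30 reads, 4 sites had 30% editing or more, and they were chosen after their values were seen. CG18522 had 12 of 23 reads (52.2%, 33.0 to 70.8%), CG5850 had 9 of 20 (45%, 25.8 to 65.8%), Ppcs had 7 of 20 (35%, 18.1 to 56.7%) and CG9932 had 7 of 23 (30.4%, 15.6 to 50.9%). Such sites were 19 to 254 bases from a fusion site of their gene in CG5850, alpha-Cat, Ugt86Da, 14-3-3zeta, Sec23 and CG18522. The site in CG10077 (9 of 39 reads, 23.1%), singled out after its values were seen, was 4489 bases from one.

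The 5 most deeply read sites lay in genes of the translation machinery. Ef1alpha48D, encoding elongation factor eEF1A, had 26 of 116 reads edited at 7782921 of 2R (22.4%, 15.8 to 30.8%). Of its 7 fusion positions, one lay 12 bases away, at 7782933, where the deaminase-alone libraries had 22 of 108 (20.4%) and 30 of 117 reads (25.6%), against 22.8% and 16.2% in Hrp48 TRIBE, 63.7% and 62.1% in Hrp48 HyperTRIBE and 55.9% in FMRP HyperTRIBE. RpS3 had 18 of 116 (15.5%, 10.05 to 23.2%), RpLP0 had 15 of 105 (14.3%, 8.85 to 22.2%), and RpS27 had 14 of 105 (13.3%) and 11 of 98 (11.2%). In RpS27 the shared site at 21072021 was higher, with 44 of 106 reads with the deaminase alone (41.5%), against 33.3% and 37.2% in Hrp48 HyperTRIBE and 24.2% in FMRP HyperTRIBE. No library had more than 149 reads at any site, so read numbers do not rank genes by expression.

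By gene class, ribosomal protein genes held 7 sites in 6 of 72 listed genes (10.7 to 21.7%), among them RpS29 with 13 of 60 reads (21.7%). Genes of secretion and membrane traffic held 9 sites in 6 of 104, and those of the cytoskeleton and adhesion 12 in 5 of 25. The last were kst, alpha-Spec, beta-Spec, the filamin gene cher and zip, the nonmuscle myosin heavy chain, where 1 site had 8 of 29 reads (27.6%). Genes of RNA-binding, splicing and mRNA decay proteins held 7 sites in 4 of 45, namely Not1, Srp54, ps and pum. Translation factors held 2 in 2 of 30 (Ef1alpha48D and EF2), and cell-cycle genes 5 in 2 of 26 (CycG and dup). A single site each fell in the lists of chaperones (Hsp27, 1 of 23 genes), ubiquitin and proteasome (Ubi-p63E, 1 of 43), the respiratory chain and mitochondrial ribosome (mRpL30, 1 of 64), ion transport (Atpalpha, 1 of 6), and hemocyte and matrix genes (the collagen IV gene vkg, 1 of 11). No site fell in the 17 listed tRNA synthetase genes, the 19 of glycolysis and metabolism, the 24 of chromatin and dosage compensation, the 18 of immune signalling, the 5 of the metal response, the 3 construct genes or the 1 neuronal gene. Over all genes, 177 of 5181 held one of the sites. The medians of editing in lists with 7 or more sites were 12% to 14.3%, beside 13.3% over all 251.

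Nearly every gene also held a site that a fusion library listed. Of the 177 genes, 174 held at least 1 site of a fusion library (98.3%, 95.1 to 99.4%). For all genes with a deaminase-alone site the share was 99%, and 97.8% of Hrp48 TRIBE genes, 49.6% of Hrp48 HyperTRIBE genes and 98.3% of FMRP HyperTRIBE genes held a site of another fusion construct. The 3 exceptions were RpS3, ct and dup. RpS3 encodes a small-subunit ribosomal protein, and its site was among the 2 with most reads of the 251. The sites of the homeobox gene ct and of the replication licensing gene dup each had 2 of 20 reads edited (10%, 2.79 to 30.1%), the lowest that the list admits. In pic and CG14803 the only fusion sites were from FMRP HyperTRIBE, with 2 and 4.

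By fusion library, Hrp48 HyperTRIBE listed a site in 167 and 165 of the 177 genes and FMRP HyperTRIBE in 137, while Hrp48 TRIBE listed one in 45 and 64. All 5 fusion libraries listed a site in 26 genes. The 177 genes held a median of 10 fusion positions each, against 4 over all 5178 genes with a fusion site, and 53.7% of them held 10 or more (46.3 to 60.9%), against 23.1% (21.97 to 24.3%). At 20 or more it was 23.7% (18.1 to 30.5%), against 5.79% (5.19 to 6.46%). Genes with many reads can enter every list more easily. How far that sets these shares was not tested. The 10 genes with most Hrp48 HyperTRIBE sites were picked from within the 177, so each held a site by choice. Of these 10, 6 held 2 or more of the 251 sites, as 44 of all 177 genes did, and none held more than 4. PlexA, encoding a semaphorin receptor, held 1, against 62 and 46 sites in Hrp48 HyperTRIBE, and pico held 2, against 48 and 47. Nipped-B, the cohesin loader, held 2, against 57 and 23. After them came CG11897, NKAIN, CycG, crol, Hers, pum and l(2)gl, the last with 1, against 27 and 22.

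Within these genes the positions differ by the rule, so only the distances between them are described. The nearest fusion site lay a median of 96 bases from the 248 sites that had one in their gene, and a median of 45 bases from another fusion site for 204 of the 208 shared sites. A fusion site lay within 50 bases of 95 of the 251 sites (37.8%, 32.1 to 44.0%) and 109 of the 208 (52.4%, 45.6 to 59.1%). Within 100 bases it was 125 (49.8%, 43.7 to 55.9%) and 141 (67.8%, 61.2 to 73.8%), and within 500 bases 205 (81.7%) and 184 (88.5%). Shared sites are by the rule at positions where a fusion library had the reads and editing to list a site, so these distances are a description and no difference was tested.

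**Figure D5:**
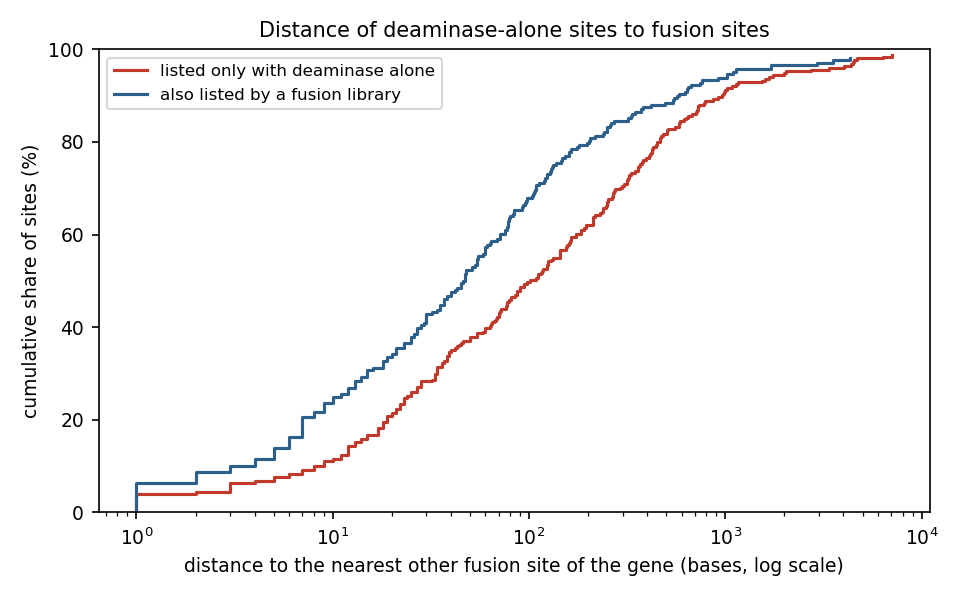
Cumulative share (%) of the 251 sites listed only with the deaminase alone and of the 208 shared sites of the same library, against the distance in bases (log scale) to the nearest other fusion site of the gene. At 100 bases the curves stand at 49.8% and 67.8%.

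Where Hrp48 HyperTRIBE listed a site next to one of the 251, that site mostly had at least as many reads. Replicates 1 and 2 listed a site within 50 bases of 72 and 61 of them. The 72 and the 61 sites each had a median of 26 reads with the deaminase alone, against 44 and 50 reads at the neighbouring HyperTRIBE position. That position had at least as many reads in 69 of 72 and 59 of 61 cases. Over all listed sites the medians were also higher, at 33 and 37 reads in Hrp48 HyperTRIBE replicates 1 and 2, against 27 in deaminase-alone replicate 2. For FMRP HyperTRIBE there were 38 neighbours, with a median of 27 reads with the deaminase alone against 37 reads, and 33 of 38 had at least as many. For Hrp48 TRIBE the medians were 39.5 and 30 reads for the deaminase alone against 22.5 and 28 reads at 10 and 14 neighbouring positions, of which 3 and 8 had at least as many reads. Reads at the unlisted position itself are not in these lists, and neighbours had to pass the read minimum to be counted.

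In 45 of the 177 genes replicate 2 also held a site that a fusion listed. The highest shared site was above the highest of the other sites in 30 of these genes, below it in 12 and equal in 3. Arc1 was among the 12, at 74.2% against 16.2%, and so was CG5045, at 38.7% against 25%. CycG was among the 30, at 25% against 47.4%, and so was Lk6, at 16.7% against 44.8%.

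By chromosome, 42 of the 251 sites lay on 2L, 60 on 2R, 56 on 3L, 61 on 3R, 30 on X, 1 on 4 and 1 on XHet, against 43, 48, 40, 53, 17, 3 and 2 of the 208 shared sites, which had 2 more on 2LHet. All 251 sites were exonic in at least 1 gene, as were all but 2 of the 208. Of the 251, 6 overlapped a pair of genes and cannot be assigned to either.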

How the data were processed

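The deposited files list edited sites on build dm3, with the edited base, whole-number read counts per base, total reads, percent edited, gene, and an exon or intron mark. The authors' percent edited is 100 times the edited count over the total, checked on every line, and their deposited score, which repeats it, was not used. A further set of base counts on each line, of at least 10 reads and 0 of the edited base, has no stated origin in the labels or headers. It gave the strand of each edit and nothing else. TopHat2 2.1.1 and Picard 2.8.2 are named in the submitters' processing notes without their roles. The thresholds behind the lists and any genome sequence were not used here.

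Sites were matched by chromosome and position, and a site in several genes was counted once as a site and once for each gene. Of the 177 gene names, 142 matched a current symbol and 33 an older one. Depth is the reads at each listed site. Wilson 95% intervals cover counting error only, since reads are not independent molecules. Sites are not independent either, as many share a gene and all members share a library. Intervals of shares therefore do not test differences between groups of sites. No test was made, because the listing is the rule and all members come from 1 library. Members and gene lists were chosen with earlier results of these data known. Genes were named if they held 3 or more of the sites, one of the 10 highest (at 30 reads or more) or 10 most read sites, or one of the 5 low sites with most reads, if they were among the 15 with the fewest fusion sites or the 10 with most Hrp48 HyperTRIBE sites, or if they were in a list, and from these the text takes those it describes. Both the 15 and the 10 were taken from the 177 genes. The 15 were to be genes without any fusion site, of which there were 3. The matching was tested on simulated data. Tools were Python 3.11.15 with scipy 1.17.1 (intervals), numpy 2.4.6, pandas 2.3.3 (tables) and matplotlib 3.10.9 (figures).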

Additional observations from a re-analysis of the deposited data

How the results depend on the processing

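Of 59 alternative values, 40 stayed within 1.5 times a reported count or within the 95% interval of a reported share or median (for medians, from order statistics), and 19 did not. Some of the 40 could not move. Leaving out deaminase-alone replicate 1, which holds none of the 251 sites, returns the same sites. Matching on strand does so too, since each position has the same strand in every library. At least 30 reads left 85 sites, 45.7% of deaminase-alone sites, with 31.8% near another, and at least 50 reads left 26 sites, 41.3%, with a median of 14.9% editing and 93.8% of genes holding a fusion site. At least 20% editing left 34 sites, 33.3%, with a median of 28.5 reads. Excluding sites with a fusion site within 100 bases left 126, or 27.2%. Genes with 2 or more fusion sites were 89.8%, and those in both Hrp48 HyperTRIBE libraries 90.4%. Neighbours within 500 bases gave 31.5%, and any deaminase-alone neighbour 28.7%.

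Leaving out 1 library at a time gave 0 sites without deaminase-alone replicate 2 and up to 269 otherwise, a share of 54.5 to 58.0%, and 96.3 to 98.3% of genes. Leaving out Arc1, or both Hrp48 HyperTRIBE libraries, was chosen after seeing the data. The second gave 315 sites, 67.9% of deaminase-alone sites, and 83.8% of genes.

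No paired analysis was possible because the results come from no test and all 251 sites come from 1 library. At 20 reads a site passes with 2 edited reads, so editing near 10% is poorly resolved.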
